A study of Homo sapiens with 6 samples.

Results

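The genes described here encode 7 inhibitors of cyclin-dependent kinases, the cyclin D1 gene CCND1 and the kinase genes CDK4 and CDK6. They were taken by name from the deposited table, which held all 10 among 20503 genes, and all 10 passed the filter on low counts that left 15961 tested genes. RNA was sequenced from T47D-TR, a tamoxifen-resistant subline of T47D grown with 4-hydroxytamoxifen, an active tamoxifen metabolite, at 1 µM, and from its parent T47D, a human breast cancer line labelled as oestrogen receptor-positive. Each group had 3 libraries, and both were grown in DMEM with serum and antibiotics. Resistance and the presence of the drug cannot be told apart, since every T47D-TR library came from cells kept in the drug. The sources used here do not say whether T47D-TR is a clone or a pool. The labels do not state whether the libraries within a group were separate cultures; the p-values then reflect only how far these samples spread, and that spread may be technical.

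Cells leave G1 when cyclin D bound to CDK4 or CDK6 phosphorylates the retinoblastoma protein RB, which releases E2F transcription factors and, with cyclin E and CDK2, opens S phase. INK4 inhibitors bind CDK4 and CDK6 and keep cyclin D off them, whereas CIP/KIP inhibitors bind whole cyclin-kinase complexes and act mainly on CDK2. In breast cancer the cyclin D1 gene is an oestrogen receptor target, and inhibitors of CDK4 and CDK6 are given together with endocrine therapy.

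The libraries held 17199315 to 19867230 counts in T47D-TR and 18315735 to 19305594 in T47D. Levels are given in CPM, the TMM-scaled count relative to the library total, and a single library's floor of 3 counts came to 0.153 to 0.178 CPM. T47D-TR replicate 3 was the library least like its group: chi-square values averaged 8.36 and 9.58 per gene when it was set against T47D-TR replicates 1 and 2, while these gave 2.79 with one another. Pairs of T47D libraries gave 1.83 to 2.24, and no pair of libraries was identical. The label was checked against defining markers. ESR1, the oestrogen receptor alpha gene, had 2, 4 and 3 counts in the T47D-TR libraries and 3, 0 and 2 in the T47D libraries, near the limit of detection, which goes against the label. Of 10 tested luminal markers, T47D-TR had 7 higher and 2 lower. Their calls came to 90%, where 63.0% of all tested genes were called. The summed levels were mostly those of the keratin genes KRT8 and KRT18, and were 2728 to 3118 CPM in T47D-TR and 2229 to 2314 CPM in T47D. GATA3, a luminal transcription factor gene, averaged 0.625 CPM in T47D-TR and 1.23 CPM in T47D, and CDH1, the E-cadherin gene, 5.50 CPM in T47D-TR and 2.12 CPM in T47D. The mesenchymal genes VIM and CD44 averaged 1296 and 721 CPM in T47D-TR and 770 and 488 CPM in T47D, and CAV1 304 CPM in T47D-TR and 319 CPM in T47D. Of 9 tested markers of mesenchymal and other cell types 4 were higher and 2 lower, with sums of 2389 to 2468 CPM in T47D-TR and 1629 to 1657 CPM in T47D. From that list PECAM1 had 453, 610 and 459 counts in T47D-TR and 13, 13 and 12 in T47D, while LUM had 6, 3 and 5 in T47D-TR and 269, 232 and 286 in T47D. COL1A2, DCN and KRT14 had 22, 19 and 15 counts in T47D-TR replicate 3, 0 to 4 in the other T47D-TR libraries and 0 in the T47D libraries. The part of these differences in the results for the 10 genes was not tested. In bulk RNA, fewer cells of a type and less RNA per cell cannot be told apart.

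CDKN2A and CDKN2B are neighbouring INK4 genes with similar coding sequence, so their reads could in principle be mixed. They lie 7601 bases apart on the minus strand of chromosome 9 (GRCh38), CDKN2A at chr9:21967753-21995301 and CDKN2B at chr9:22002903-22009363. Of 4030 stretches of 50 bases in CDKN2B coding transcripts, 31 (0.769%) also occur in CDKN2A and none in any other gene's transcripts. Nearly all of the CDKN2B sequence is therefore its own at that length. No such stretch of CDKN2C, CDKN2D, CDKN1A, CDKN1B or CDKN1C was found in another gene.

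In T47D-TR 3 of the 10 genes were higher and 5 lower at an adjusted p under 0.05 (edgeR's quasi-likelihood test, Benjamini-Hochberg over all tested genes), and 2 were not called. An INK4 and a CIP/KIP gene changed most: CDKN2B rose 7.65-fold and CDKN1A 4.04-fold. The 3 genes of the kinase complex itself, CCND1, CDK4 and CDK6, all fell, to 0.655, 0.747 and 0.707 of the T47D level. This count has to be read against a background in which 63.0% of tested genes were called, 32.5% higher and 30.5% lower, so 8 calls among 10 genes are not a result about this set. The groups did not overlap for 8 of the 10 genes, against 68.3% of tested genes. The median log2 fold change was -0.31 over the 10 genes and 0.00189 over all tested genes. Only 1.92% of tested genes had a larger change in size than CDKN2B and 4.35% a larger one than CDKN1A, while 52.8% exceeded CDKN1B.

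**Figure D1:**
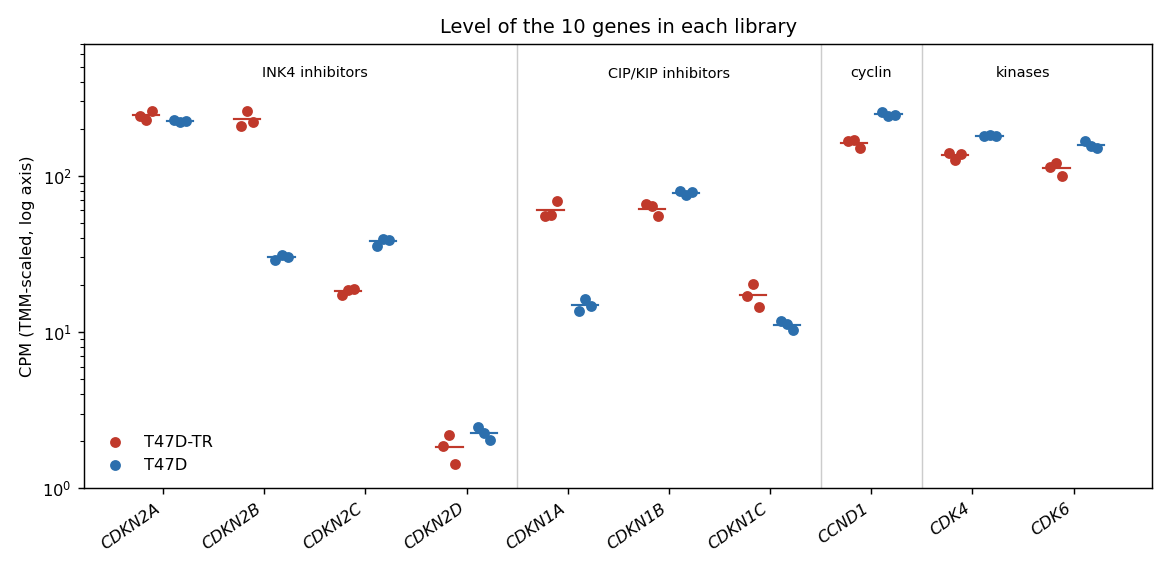
Level of each of the 10 genes in the 6 libraries, in TMM-scaled CPM on a log axis. Points are libraries (T47D-TR in red, T47D in blue) and lines are group means. CDKN2B lies at 209 to 261 CPM in T47D-TR and 28.8 to 31.1 CPM in T47D, while CDKN2A and CDKN2D overlap between the groups.

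The INK4 genes did not move together. CDKN2B, which encodes p15, an inhibitor induced by TGF-beta in epithelial cells, had 209, 261 and 220 CPM in T47D-TR replicates 1, 2 and 3, against 28.8, 31.1 and 30.3 CPM in T47D replicates 1, 2 and 3. The lowest T47D-TR library stood far above the highest T47D library. Its log2 fold change was 2.93 ± 0.10 (SE, n = 3 each, edgeR adjusted p = 3.764e-11). CDKN2A, which encodes p16 and, from another first exon, ARF, had 242, 228 and 261 CPM in T47D-TR, against 230, 222 and 225 CPM in T47D. These groups overlapped, and the difference of 0.11 ± 0.06 on the log2 scale was not called (edgeR adjusted p = 0.0713). It was called, still as higher in T47D-TR, with voom and quantile normalization (0.16, limma adjusted p = 0.0114), with genes of at least 5 mean CPM (0.13, edgeR adjusted p = 0.0458) and without T47D-TR replicate 2 (0.16, edgeR adjusted p = 0.0144). Counts per gene do not separate p16 from ARF.

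CDKN2C, the p18 gene on chromosome 1, went the other way. It had 17.2, 18.5 and 18.9 CPM in T47D-TR and 35.75, 39.6 and 38.7 CPM in T47D, so that every T47D-TR library held less than any T47D library. The log2 fold change was -1.06 ± 0.06 (edgeR adjusted p = 8.084e-08). CDKN2D, the p19 gene on chromosome 19, was the scarcest of the 10, with 36, 43 and 24 counts in T47D-TR and 46, 44 and 38 in T47D, or 1.83 ± 0.387 CPM in T47D-TR and 2.25 ± 0.220 CPM in T47D (SD, n = 3 each). These groups overlapped, and a log2 fold change of -0.29 ± 0.19 was not called (edgeR adjusted p = 0.256).

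CDKN2B is covered along its whole length, 6461 bases, by the antisense gene CDKN2B-AS1 (ANRIL), a noncoding RNA linked to Polycomb silencing of this locus, and by the gene model AL359922.1, which was not analysed here. The exons share no sequence at that length: on either strand, 0 of the 4030 stretches of CDKN2B occur in transcripts of CDKN2B-AS1. The antisense gene had 75, 92 and 69 counts in T47D-TR and 62, 47 and 60 in T47D, while CDKN2B had 4027, 5117 and 3716 counts in T47D-TR and 534, 609 and 565 in T47D. CDKN2B-AS1 thus held few counts in both groups, and it rose with a log2 fold change of 0.50 ± 0.16 (edgeR adjusted p = 0.0233). CDKN2A shares 295 of 3260 stretches of 50 bases with CDKN2B-AS1.

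Of 14 listed genes around CDKN2A and CDKN2B 10 were tested, of which edgeR called 6 higher, 0 lower and 4 neither way (median log2 fold change 0.51), so that 60% were called, against 63.0% of all tested genes. Of all tested genes 32.5% were called higher and 30.5% lower. The count of lower genes was also 0 at an unadjusted p under 0.05 and with DESeq2, and 1 with library size alone or voom. The count of higher genes was 5 with DESeq2, voom or without T47D replicate 3. It was 4 with a mean CPM of at least 5 or without T47D replicate 2, and 7 with the replicate block. MTAP, the methylthioadenosine phosphorylase gene, stood at 151 ± 9.39 CPM in T47D-TR and 134 ± 1.74 CPM in T47D (log2 0.17, edgeR adjusted p = 0.0111). DMRTA1, a transcription factor gene, rose to 6.32 ± 1.53 CPM in T47D-TR, against 2.52 ± 0.111 CPM in T47D (log2 1.33, edgeR adjusted p = 6.116e-05). The noncoding gene LINC01239 had 66, 83 and 100 counts in T47D-TR and 1, 0 and 0 in T47D, a ratio of 253 with a 95% interval of 45.1 to 10100 from the exact binomial interval of the counts, which covers counting error only. MIR31HG, a noncoding gene, and MLLT3 also rose, with log2 fold changes of 0.56 and 0.53, so that the largest changes there were those of LINC01239, CDKN2B and DMRTA1.

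The CIP/KIP genes were all called, in different directions. CDKN1A, which encodes p21, an inhibitor of cyclin-CDK2 complexes, had 55.0, 56.4 and 68.7 CPM in T47D-TR, against 13.6, 16.4 and 14.6 CPM in T47D. The groups lay well apart, and the highest value was that of T47D-TR replicate 3. The log2 fold change was 2.01 ± 0.13 (edgeR adjusted p = 4.767e-09), and 1.91 without that library. CDKN1C, which encodes p57, an imprinted inhibitor, had 16.95, 20.1 and 14.4 CPM in T47D-TR and 11.7, 11.2 and 10.3 CPM in T47D. Its groups did not overlap, though T47D-TR replicate 3 came close to T47D replicate 1 (log2 0.64 ± 0.15, edgeR adjusted p = 0.000462). CDKN1B, which encodes p27, the inhibitor that holds quiescent cells back, fell to 65.6, 64.4 and 55.1 CPM in T47D-TR, against 80.1, 75.3 and 78.6 CPM in T47D. This was the smallest called change of the 10 (log2 -0.34 ± 0.08, edgeR adjusted p = 0.000698), and again T47D-TR replicate 3 lay farthest from T47D; without it the value was -0.26.

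The promoter windows of both genes that rose most held 67.3% GC for CDKN2B and 74.3% for CDKN1A, against a median of 58.7% over all promoter windows. High GC was not particular to them: windows of CDK6, which fell, held 78.0% and 68.7%, those of CDKN2C 46.3%, 71.3% and 49.3%, and those of the uncalled CDKN2A and CDKN2D 63.3%, 69.0% and 68.0%. Each window is 300 bases that span a RefSeq transcription start (GRCh38.p14), printed 5′ to 3′ on the gene's strand. Capitals mark the GC box GGGCGG, on either strand, a motif bound by SP1 and Krüppel-like factors. The CDKN2B window is chr9:22009256-22009555 (minus strand) and the CDKN1A window chr6:36678464-36678763 (plus strand). CDKN2C, which fell, has 3 windows, and the one with the most GC boxes, at chr1:50968456-50968755 (plus strand), is printed for comparison.
CDKN2B: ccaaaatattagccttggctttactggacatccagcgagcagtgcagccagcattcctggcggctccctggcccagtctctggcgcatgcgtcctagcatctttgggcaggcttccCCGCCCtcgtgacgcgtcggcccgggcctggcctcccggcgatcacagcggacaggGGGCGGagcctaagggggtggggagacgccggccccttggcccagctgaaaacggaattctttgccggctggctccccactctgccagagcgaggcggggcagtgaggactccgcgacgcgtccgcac
CDKN1A: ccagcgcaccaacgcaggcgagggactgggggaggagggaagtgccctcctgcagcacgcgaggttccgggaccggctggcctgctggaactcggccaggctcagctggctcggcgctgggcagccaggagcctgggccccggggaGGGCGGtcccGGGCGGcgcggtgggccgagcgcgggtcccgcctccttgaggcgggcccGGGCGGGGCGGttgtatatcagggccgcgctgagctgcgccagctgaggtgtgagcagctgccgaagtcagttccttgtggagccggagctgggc
CDKN2C: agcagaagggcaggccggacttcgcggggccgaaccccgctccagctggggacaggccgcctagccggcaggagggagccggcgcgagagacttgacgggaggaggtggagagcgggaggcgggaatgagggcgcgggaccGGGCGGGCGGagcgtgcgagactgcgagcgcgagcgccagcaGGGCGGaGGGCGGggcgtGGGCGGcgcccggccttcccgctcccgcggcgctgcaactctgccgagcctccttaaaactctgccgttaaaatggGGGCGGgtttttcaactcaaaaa
GGGCGG occurred 2 times in the CDKN2B window, 4 times in that of CDKN1A and 6 times in the printed CDKN2C window, some of them overlapping; the other CDKN2C windows held 0 and 1. Over all windows, it occurred in those of genes that rose, of genes that fell (CDKN2C, CDKN1B, CDK4 and CDK6) and of the uncalled CDKN2A and CDKN2D. The reference table had 12 windows for 8 of the 10 genes, and no window for CCND1 or CDKN1C, which the motif counts therefore do not cover. Of the 12 windows 9 held GGGCGG, against 45.0% of all 35116 promoter windows. That comparison was not matched for GC. The AP-1 motif TGACTCA, the cAMP response element TGACGTCA and the E2F motif TTTCGCGC were in 0 of the 12 windows, and in 4.95%, 1.85% and 0.515% of all windows. A match describes letters only and is no evidence of binding.

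Cyclin D1 and its kinases were lower in T47D-TR in every library. CCND1 (chr11:69641087-69654474, plus strand), whose product activates CDK4 and CDK6, had 167, 169 and 152 CPM in T47D-TR, against 257, 242 and 246 CPM in T47D. The groups were far apart for their spread, with a log2 fold change of -0.61 ± 0.06 (edgeR adjusted p = 4.487e-07). ORAOV1, which overlaps CCND1 by 1399 bases on the opposite strand, fell alongside to 49.6 ± 1.07 CPM in T47D-TR, against 74.6 ± 1.17 CPM in T47D (log2 -0.59 ± 0.02, edgeR adjusted p = 5.618e-07). Of 4402 stretches of 50 bases in CCND1 transcripts 402 also occur in transcripts of that neighbour. With the strand setting unknown, the part of the overlap in the CCND1 difference was not tested.

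CDK4 (chr12:57747727-57756013, minus strand) had 140, 127 and 139 CPM in T47D-TR, against 180, 183 and 179 CPM in T47D. Its T47D libraries differed by little and all exceeded the T47D-TR libraries (log2 -0.42 ± 0.05, edgeR adjusted p = 9.287e-06). The overlapping genes on the other strand, TSPAN31 and MARCH9, moved the opposite way, with log2 fold changes of 0.33 and 0.93, from no more than 196 and 134 counts in any library. Of 2704 stretches of 50 bases in CDK4 transcripts, 935 (34.6%) also occur in TSPAN31 transcripts, so counts of CDK4 depend on how such reads were assigned. CDK6 (chr7:92604921-92836594, minus strand) had 114, 120 and 99.8 CPM in T47D-TR, against 167, 156 and 151 CPM in T47D. Here too the groups did not overlap (log2 -0.50 ± 0.09, edgeR adjusted p = 2.96e-05), and T47D-TR replicate 3 was lowest, with -0.43 when it was left out. The CDK4 window, chr12:57752261-57752560 on the minus strand, is shown because it holds 3 E-boxes, CACGTG, the motif of MYC and MAX, besides 3 GC boxes; both motifs are in capitals.
CDK4: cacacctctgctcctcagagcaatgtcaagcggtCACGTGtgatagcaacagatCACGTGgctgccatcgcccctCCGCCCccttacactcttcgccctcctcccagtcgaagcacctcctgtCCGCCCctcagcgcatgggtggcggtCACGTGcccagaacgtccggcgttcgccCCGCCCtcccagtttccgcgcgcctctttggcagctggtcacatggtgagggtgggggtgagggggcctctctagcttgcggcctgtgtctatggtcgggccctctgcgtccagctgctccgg
CACGTG was found in 4 of the 12 windows, from CDK4, CDK6 and CDKN2C, against 7.26% of all windows, and it reads the same on both strands.

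**Figure D2:**
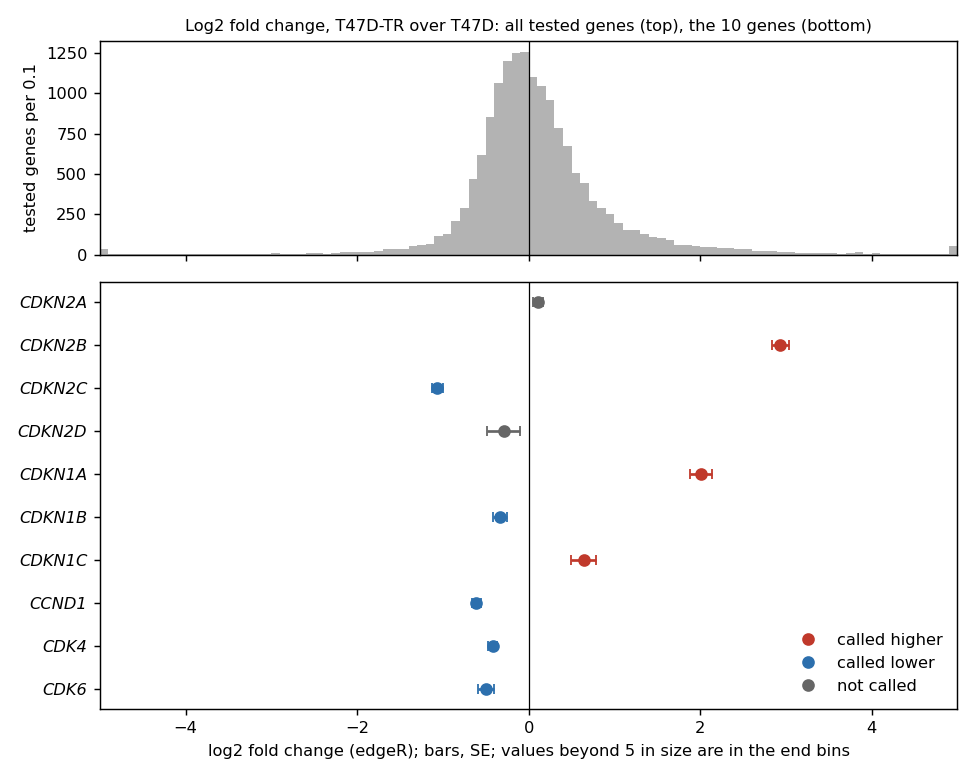
Log2 fold changes, T47D-TR over T47D, of all 15961 tested genes as a histogram (top) and of the 10 genes with their SE (bottom); genes beyond 5 in size are in the end bins. CDKN2B at 2.93 and CDKN1A at 2.01 lie in the right tail, while the 5 genes called lower lie between -1.06 and -0.34.

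Shares of counts within a library do not depend on the scaling between libraries, and they moved with the gene-wise results. CDKN2B took 44.45%, 51.15% and 43.85% of the counts of the 4 INK4 genes in the T47D-TR libraries, against 9.695%, 10.6% and 10.2% in the T47D libraries. The means were 46.5% ± 4.05 in T47D-TR and 10.2% ± 0.434 in T47D (SD, n = 3 each). CDKN1A took 40.0%, 40.0% and 49.7% of CIP/KIP counts in T47D-TR, against 12.9%, 15.9% and 14.1% in T47D, where CDKN1B held most. All 7 inhibitors together made up 59.0%, 61.1% and 62.1% of the counts of the 10 genes in T47D-TR, against 39.9%, 40.6% and 41.0% in T47D. The groups did not overlap in any of these 3 shares, and each gave p = 0.1 in a 2-sided exact permutation test, the smallest that 3 against 3 allows (0.133 adjusted over 4 shares). The 7 inhibitors did not move as 1 class, since CDKN2C and CDKN1B fell and CDKN2A and CDKN2D were not called. CDKN2B alone gave 4027, 5117 and 3716 of the 11712, 12769 and 10809 inhibitor counts in T47D-TR. In T47D it gave 534, 609 and 565 of 7465, 7781 and 7461.

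CDK6 made up 45.0%, 48.7% and 41.8% of the counts of CDK4 plus CDK6 in T47D-TR, against 48.1%, 45.9% and 45.7% in T47D. These groups overlapped, and the difference of -1.395 percentage points (exact permutation p = 0.5, adjusted 0.5) turned to 0.29 without T47D-TR replicate 3. A difference in the balance of the kinases was thus smaller than the spread between libraries. The exact 95% binomial intervals of a single library's share were 40.3% to 43.3% for T47D-TR replicate 3 and 47.3% to 50.1% for T47D-TR replicate 2, and cover counting error only.

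**Figure D3:**
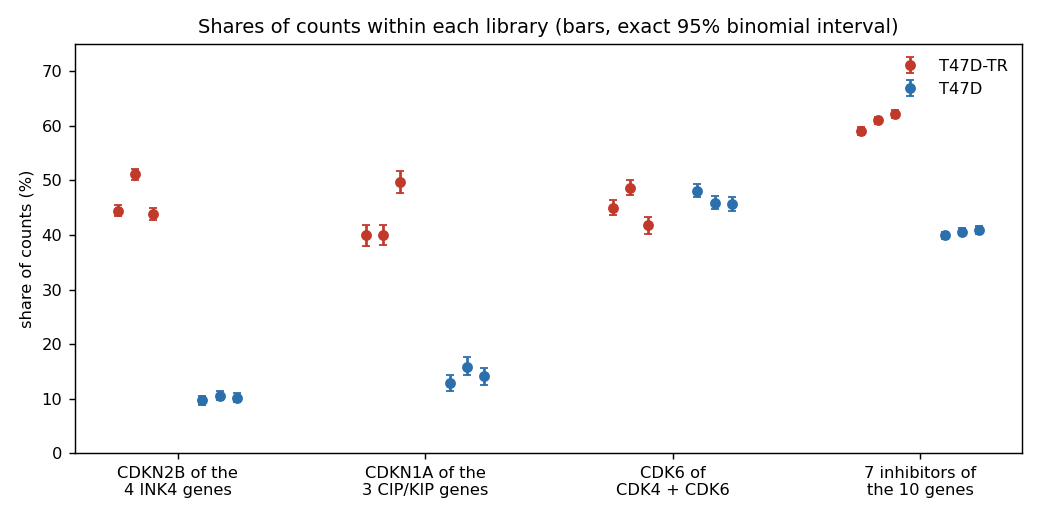
Share of counts within each library, in percent, for 4 groupings of the 10 genes; points are libraries (T47D-TR in red, T47D in blue) and bars exact 95% binomial intervals. The T47D-TR points lie above the T47D points in 3 of the shares and overlap them for CDK6.

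Levels can be compared between genes only per length. Per kilobase of merged coding-transcript exons, CDKN2A averaged 77.3 ± 5.24 CPM in T47D-TR, followed by CDK4 at 65.1 ± 3.58, CDKN2B at 57.0 ± 6.80 and CCND1 at 36.9 ± 2.12. In T47D the order was CDK4 at 87.2 ± 1.07, CDKN2A at 71.5 ± 1.2, CCND1 at 56.4 ± 1.76 and CDKN1B at 29.4 ± 0.921 CPM per kilobase. CDKN2B thus had rank 3 in T47D-TR and rank 7 in T47D, where it was at 7.45 ± 0.300 CPM per kilobase. In T47D-TR CDK4 and CDKN2B overlapped over the libraries (61.0 to 67.4 and 51.8 to 64.7 CPM per kilobase), and so did CDKN1A and CDKN1B (21.9 to 27.4 and 20.8 to 24.7). CDK6 came to 9.505 ± 0.894 CPM per kilobase in T47D-TR and 13.45 ± 0.719 in T47D over 11729 bases of exons. CDKN2D was last in both groups, at 1.215 ± 0.258 CPM per kilobase in T47D-TR and 1.5 ± 0.147 in T47D. Which transcripts the cells use is not known from counts per gene, so this order depends on the merged length.

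Over the 6 libraries the genes most like CDKN2B in log2 CPM were ETV4, DDIT4 and TBC1D2, with Pearson's r of 0.9999, 0.9997 and 0.9996 among 9835 genes of at least 10 CPM. ETV4 is a PEA3-type ETS factor gene and DDIT4 encodes an inhibitor of mTOR complex 1. For CDKN1A they were LRP11, TMEM69 and ADAM9 (r of at least 0.9993), for CDKN2C NOL4L, POMP and DUS1L (at least 0.9989) and for CCND1 PLEKHB2, XPO6 and NOM1 (at least 0.9989). Because the 6 libraries fall into 2 groups that differ in most genes, these coefficients describe mainly that split and are given with no test.

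Partner genes of the G1 kinases moved both ways. Of 14 listed cyclins, kinases and cofactors 5 rose, 6 fell and 3 had no call (median log2 fold change -0.05), which is 78.6% called, against 63.0% of all tested genes. The other D-type cyclin genes fell as CCND1 did, CCND2 to 27.9 ± 2.29 CPM in T47D-TR, against 36.1 ± 1.42 CPM in T47D, and CCND3 to 51.9 ± 3.75 CPM, against 61.2 ± 3.07 CPM in T47D. CCNE1 and CCNE2, the cyclin E genes, were not called (log2 0.13 and -0.10). CDC25A, the phosphatase that frees CDK2 from inhibitory phosphate, fell to 45.9 ± 4.23 CPM in T47D-TR, against 84.9 ± 1.14 CPM in T47D, and CCNA2, the S phase cyclin A gene, fell to 143 ± 12.1 CPM, against 247 ± 4.66 CPM in T47D. All 3 genes of the CDK-activating kinase rose, CDK7 by 0.37, CCNH by 0.37 and MNAT1 by 0.29 on the log2 scale, and CDK5 by 0.43.

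Of 18 genes of the RB and E2F module 9 rose, 6 fell and 3 were not called (median log2 0.16), or 83.3% called, against 63.0% of all tested genes. The 3 pocket protein genes were called higher, RBL1 by the weakest call. RB1 stood at 180 ± 9.61 CPM in T47D-TR and 142 ± 3.18 CPM in T47D (edgeR adjusted p = 5.729e-05). RBL2, the p130 gene, had a log2 fold change of 0.42 (edgeR adjusted p = 1.928e-05) and RBL1, the p107 gene, of 0.21 (edgeR adjusted p = 0.0306). TFDP1, the dimer partner of E2F factors, fell to 231 ± 11.6 CPM in T47D-TR, against 356 ± 4.49 CPM in T47D, and E2F4, a repressor-type member, had -0.55. The count of 9 depended on the settings and came to 4 with library size alone, DESeq2, voom, or without T47D-TR replicate 2 or T47D replicate 2, and to 5 without T47D replicate 1 or 3.

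Of 25 E2F-regulated genes of DNA replication 12 fell, 2 rose and 11 had no call (median log2 fold change -0.17). The called share was 56%, where 63.0% of all tested genes were called, 30.5% lower and 32.5% higher. The calls in this list were thus mostly lower, while those of all tested genes were split nearly evenly. MCM2, a subunit of the replicative helicase, fell to 200.3 ± 6.52 CPM in T47D-TR, against 302 ± 4.29 CPM in T47D, and GINS2, of the same helicase complex, fell to 39.0 ± 1.32 CPM, against 61.0 ± 0.346 CPM in T47D. TYMS, the thymidylate synthase gene, and MCM3 were the 2 that rose, by 0.16 and 0.10, and the MCM3 call ended under 8 alternatives (edgeR, DESeq2 adjusted p of 0.0563 to 0.175). Without T47D-TR replicate 3 the genes called higher numbered 5, and 0 to 1 without T47D-TR replicate 2 or any T47D replicate.

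Genes of inhibitor and cyclin D1 turnover were mostly lower. Of 23 tested members 15 fell, 3 rose and 5 were not called (median log2 -0.22). The called share was 78.3%, where 63.0% of all tested genes were called and 30.5% fell. Genes that degrade and genes that stabilise these proteins are listed together. SKP2, the F-box protein that marks p27 and p21 for degradation, fell to 83.5 ± 8.22 CPM in T47D-TR, against 161 ± 2.02 CPM in T47D (log2 -0.95 ± 0.08, edgeR adjusted p = 7.142e-08). Its cofactor gene CKS1B fell with it (log2 -0.74), and CKS2, a paralogue, had a log2 fold change of -0.86. CUL1 and SKP1, the scaffold and adaptor of the same ligase, fell by 0.21 and 0.22 on the log2 scale. CUL4A and DDB1, of the ligase that degrades p21 in S phase, had log2 fold changes of -0.52 and -0.33, whereas DTL, its substrate receptor, rose by 0.42. USP2, a deubiquitinase that stabilises cyclin D1, rose to 4.79 ± 0.928 CPM in T47D-TR, against 2.32 ± 0.389 CPM in T47D, and GSK3B, the kinase that marks cyclin D1 for export and degradation, by 0.38. Without T47D-TR replicate 3 the genes called higher numbered 5.

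Of 38 listed regulators of the inhibitor or cyclin D1 genes, activators and repressors together, 22 were higher, 7 lower and 9 not called. The median log2 fold change was 0.30. The called share was 76.3%, where 63.0% of all tested genes were called and 32.5% were higher. KLF4, a Krüppel-like activator of CDKN1A, rose to 55.5 ± 7.97 CPM in T47D-TR, against 14.1 ± 0.687 CPM in T47D (log2 1.98 ± 0.13, edgeR adjusted p = 6.863e-09). ZFP36L1, an RNA-binding protein gene listed here for its action on cell cycle transcripts, rose to 324 ± 39.3 CPM, against 91.4 ± 1.95 CPM in T47D. MDM2, a ubiquitin ligase gene, was not called, with 86.95 ± 6.59 CPM in T47D-TR and 95.3 ± 2.42 CPM in T47D (log2 -0.13, edgeR adjusted p = 0.0669). In the TGF-beta branch that acts on CDKN2B, SMAD2, SMAD3, SMAD4 and TGFBR2 rose by 0.74, 0.67, 0.24 and 0.81 on the log2 scale, while TGFBR1 fell to 11.5 ± 0.622 CPM in T47D-TR, against 24.2 ± 1.95 CPM in T47D. Of the forkhead activators of CDKN1B, FOXO3 and FOXO4 had log2 fold changes of 0.55 and 1.05 and FOXO1 was not called (-0.10). Among Polycomb genes that repress the CDKN2A and CDKN2B locus, EZH2 and CBX8 fell by 0.46 and 0.49 on the log2 scale, CBX7 and RING1 rose by 0.76 and 0.39, and BMI1 and RNF2 were not called (-0.06 and 0.24). ID1, an inhibitor of E-protein transcription factors, was at 98.7 ± 9.46 CPM in T47D-TR and 163 ± 1.56 CPM in T47D.

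**Figure D4:**
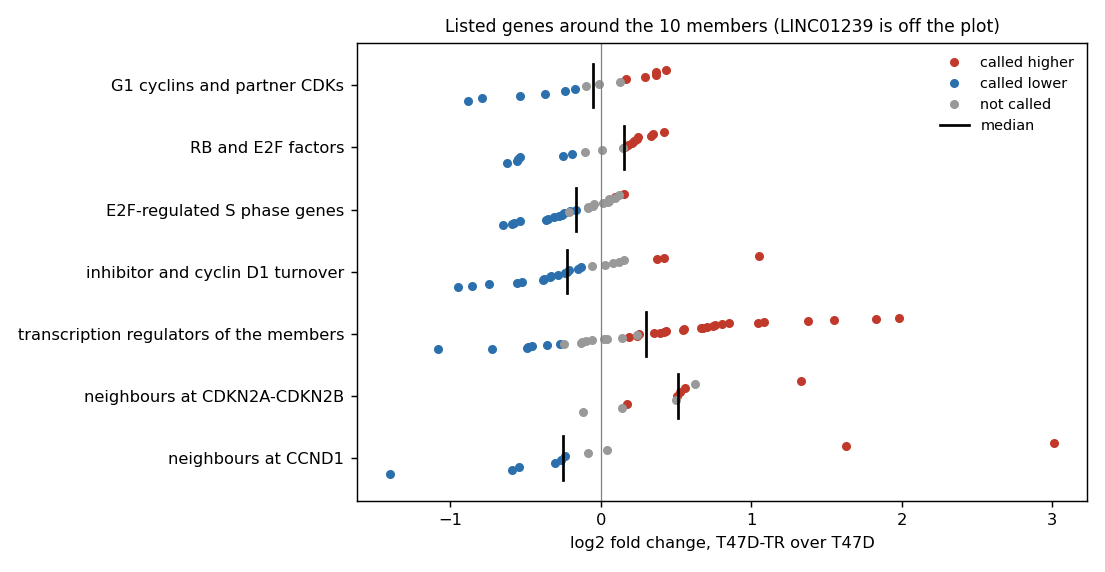
Log2 fold changes, T47D-TR over T47D, of the tested genes of 7 lists around the inhibitors, cyclin D1 and its kinases; each point is a gene coloured by its call, the black bar is the median of the list, and LINC01239 lies beyond the axis. Most turnover genes lie left of 0 and most genes listed as transcription regulators right of it, with medians of -0.22 and 0.30.

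Around CCND1 on chromosome 11, 2 of 10 tested neighbours were higher, 6 lower and 2 not called (median log2 -0.25), where 30.5% of all tested genes were lower and 63.0% called. MYEOV, a gene often amplified with CCND1, rose to 50.01 ± 15.2 CPM in T47D-TR, against 6.22 ± 0.723 CPM in T47D (log2 3.01 ± 0.30, edgeR adjusted p = 1.099e-07), and the scaffold gene SHANK2 rose to 5.34 ± 0.327 CPM, against 1.72 ± 0.236 CPM in T47D. CTTN and FADD, which often share the amplified segment, had log2 fold changes of -0.27 and -0.23. The neighbours thus moved in both directions. MRGPRF, a receptor gene, had the lowest value (log2 -1.40), and MRPL21, of the mitochondrial ribosome, -0.54.

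The authors' deposited table gives CDKN2B a fold change of 7.61 and CDKN1A of 4.02, with a false discovery rate of 0.508 for CDKN2A and 0.461 for CDKN2D. In the authors' deposited table the highest rate among the other 8 genes is 0.00343, for CDKN1B. Without T47D-TR replicate 3, the library that stood apart, edgeR called the same 3 genes higher and 5 lower, with log2 fold changes of 2.97 for CDKN2B, 0.75 for CDKN1C, -1.09 for CDKN2C, -0.56 for CCND1 and -0.44 for CDK4.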

How the data were processed

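HISAT2 2.1.0, DESeq and the build GRCh38 are named in the submitters' processing notes; the sources used here do not give the counting tool, its strand setting or the annotation. Per the labels' protocols, libraries were poly(A)-selected with a directional kit. The deposited table holds whole-number counts for every gene in each library, and not the FPKM its name gives. Beside them the authors placed a mean signal per group (by its values, counts divided by a size factor per library), a linear ratio (fold) of these means, its log2 value, and a p-value with a false discovery rate.

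Counts were scaled with TMM, filtered with filterByExpr (minimum count 10, minimum total 15) and tested with edgeR 4.0.16 (glmQLFit, glmQLFTest; R 4.3.3) over 15961 genes, 2-sided, with calls at a Benjamini-Hochberg adjusted p below 0.05. SE came from log2 CPM with a prior count of 2. Alternatives used limma 3.58.1 and DESeq2 1.42.0, other scalings and filters, a replicate block and leaving out each library. The procedure was tested on simulated data, with 200 of 15961 genes changed. It recovered 42% of 1.25-fold, 64% of 1.5-fold, 90% of 2-fold and 98% of 4-fold changes. Of its 163 calls, 16 were false. In the data 63.0% of tested genes were called, far more than were changed in the simulation. Its rates therefore do not carry over to the fit of the data. Named genes were the 10 members, up to 2 called at each end of each list, and the 3 most similar genes for CDKN2B, CDKN1A, CDKN2C and CCND1, with MTAP and CDKN2B-AS1; other list genes were named after their values were seen. The members and lists were chosen with earlier results of these data known. Positions, lengths and transcripts are from GENCODE 29, promoters from RefSeq GRCh38.p14. The listed gene LTO1 was found under its older symbol ORAOV1. Intervals and floors cover counting error only. Some items are not reported here.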

Additional observations from a re-analysis of the deposited data

How the results depend on the processing

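Of the 10 genes, the 8 called ones kept direction and call under all 15 alternatives, and CDKN2D stayed uncalled under the 14 whose filter it passed. Values ranged from 2.84 to 3 for CDKN2B, 1.91 to 2.09 for CDKN1A, 0.48 to 0.75 for CDKN1C, -0.38 to -0.26 for CDKN1B and -0.65 to -0.56 for CCND1 on the log2 scale. CDKN2A was called in 3 of 15, at 0.16 (0.1584) with voom and quantile normalization, 0.13 (0.1254) with a mean CPM of at least 5, and 0.16 without T47D-TR replicate 2; leaving out single libraries gave 0.061 to 0.159. The share of CDK6 in CDK4 plus CDK6 differed by -3.165 to 0.2919 percentage points when single libraries were left out, the last without T47D-TR replicate 3, where it reversed; the cause was not tested. Genes called numbered 4048 to 5503 higher and 3962 to 5790 lower over the alternatives. Quantile normalization moved the median log2 fold change of all genes by -0.108. With the replicate block, 5127 genes were called higher and 4827 lower, and 3 and 5 of the 10; same-numbered libraries did not deviate together (r of -0.0208 to -0.00512), so the numbers were not taken as pairs. In the lists, 20 counts moved by over 1.5 times, all of 9 calls or fewer, and MCM3 lost its call under 8 alternatives and TYMS under 1 (without T47D replicate 1). CDKN2D had no more than 46 counts in any library, and leaving out single libraries moved it between -0.44 and -0.15.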
